A study of Rattus norvegicus with 10 samples.

Results

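Sertoli cells cultured from 20-day-old rats were compared after 24 h of follicle-stimulating hormone (FSH) and before any hormone, to describe which transcripts still differed, or first differed, after a day of treatment. The comparison used 4 of the study's 10 arrays: 2 of untreated cultures at 0 h, labelled as controls, and 2 of cultures given FSH for 24 h. The other 6 arrays, from cultures given FSH for 2, 4 or 8 h, served to place each gene in time. Array 1 at 24 h was compared with array 1 at 0 h, and array 2 with array 2. All 8740 probe sets of the 8799 on the array that measure rat transcripts entered, without the 59 control probe sets. The labels give no strain, no dose of hormone and no culture method, and they leave unsaid whether replicates were separate cultures. The p-values therefore cover the spread between these arrays alone, some or all of which may be technical. No untreated culture was labelled later than 0 h, so a day of FSH and a day in culture cannot be told apart in any value below.

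Sertoli cells line the seminiferous tubule and support the germ cells. FSH from the pituitary binds the receptor Fshr on their surface, raises cyclic AMP (cAMP) and activates protein kinase A, which phosphorylates the factor CREB at cAMP response elements in target promoters. The response is known for its brakes: cAMP is degraded by induced phosphodiesterases, and the repressor ICER, made from an internal promoter of Crem, occupies the same elements. In the animal the hormone also drives secretion of inhibin, which returns to the pituitary and lowers FSH, and of proteins that carry metals, lipids and hormones to the germ cells.

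Levels are given as scaled intensities, which are the deposited intensities with every array brought to the same 75th percentile (107). Values under 13.4, called the floor here and equal to that percentile divided by 8, were set to it before taking log2. Probe sets with a 10-array mean of at least 31.9, the median of all values pooled, were tested, which left 4439, with 2733 genes named by exactly 1 symbol. Changes are log2 differences of 24 h minus 0 h with their standard error (SE) from limma, a linear model across all probe sets, and n is 2 arrays per group throughout. A change was called where the Benjamini-Hochberg adjusted p was under 0.05.

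The arrays differed by replicate number as well as by time. Replicate arrays correlated at 0.867 at 0 h and 0.905 at 24 h across tested probe sets, with an SD of the log2 difference of 0.978 and 0.821. The ratio of the 3' to the 5' beta-actin control ran from 0.928 to 1.17 on the replicate 1 arrays and from 1.48 to 1.76 on the replicate 2 arrays. Control replicate 1 had a deposited value of 16221 for the spiked CreX control, against 2815 to 9818 on the other 9 arrays. The difference between array 2 and array 1 correlated between 0 h and 24 h at 0.417, and between all 10 pairs of times at 0.110 to 0.698. Those with 0 h were the lowest, at 0.110 to 0.417. The numbers were taken to pair the samples, and values with the replicate number as a block are printed beside those they change. Correlations across probe sets do not show that arrays of 1 number shared a culture.

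Few probe sets stood apart from 0 h after a day. By limma, 0 probe sets (0%) were called higher at 24 h than at 0 h and 0 (0%) lower, with a smallest adjusted p of 0.0659. At an unadjusted p under 0.05 there were 127 higher (2.86%) and 77 lower (1.73%). Together these shares stayed under 0.05, the share expected where nothing differs. With the replicate block 4 were called higher (0.0901%), namely probe sets of Inha, Star, Bmyc and Wfdc1, and 0 lower (0%). The changes are also described, without a test, by a 2-fold set: at least a 2-fold change within replicate 1 and within replicate 2, with no overlap between the 24 h and the 0 h arrays. It held 57 probe sets higher (1.28%) and 30 lower (0.676%), for 44 and 27 genes with 1 symbol. By the same measure at 2 h 85 were higher and 34 were lower (1.91% and 0.766%), 156 and 36 at 4 h (3.51% and 0.811%), and 168 and 46 at 8 h (3.78% and 1.04%). These comparisons share the 0 h arrays. Of the 57, 14 had a 0 h array at the floor, and of the 30, 11 had a 24 h array at the floor, so their sizes depend on it. Of 4301 dimmer probe sets that were not tested, 11 and 24 met the same conditions.

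The changes within each replicate number had little in common across the array. Across tested probe sets, which are not independent replicates, they correlated at r = 0.0959 (Spearman's rho 0.0761). Within replicate 1 alone 374 probe sets were at least 2-fold higher and 313 lower, and within replicate 2 alone 264 and 296. At least 2-fold changes in the same direction on both arrays were seen for 91 probe sets, and in opposite directions for 50. Medians were close to 0 on both, at 0.04 within replicate 1 and 0.02 within replicate 2. Arrays of the groups did not overlap for 700 probe sets higher at 24 h (15.8%) and 589 lower (13.3%). Taking the brightest probe set of each of the 2733 tested genes, 445 were higher (16.3%) and 379 lower (13.9%). These shares are the background against which the counts of gene groups below are read. All gene lists were drawn up with earlier results of these arrays known, so their counts and shares are descriptions.

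**Figure D1:**
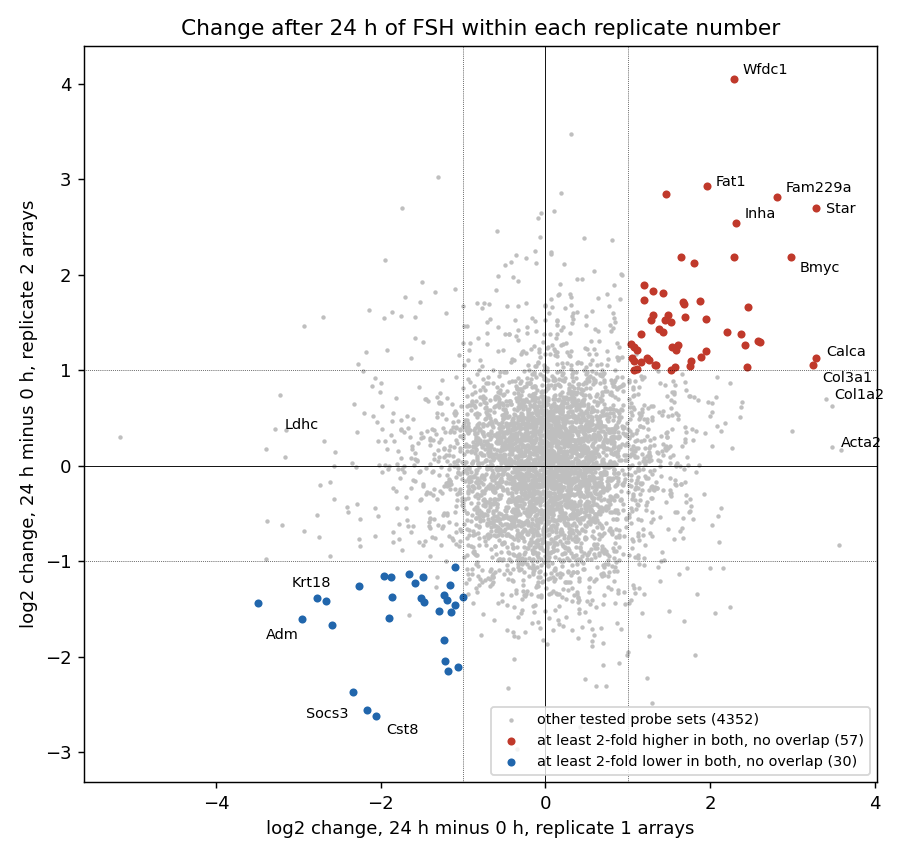
Each point is 1 of the 4439 tested probe sets, with its log2 change (24 h minus 0 h) on the replicate 1 arrays along the x axis and on the replicate 2 arrays along the y axis. Red points are the 57 probe sets at least 2-fold higher in both and blue points the 30 at least 2-fold lower in both, without overlap of the arrays. The cloud has no clear slope (r = 0.0959), Wfdc1, Star, Fam229a, Bmyc, Fat1 and Inha lie far out on both axes, and Acta2 and Col1a2 lie far out on the x axis alone.

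Inha, which encodes the alpha subunit of inhibin, was the 1 hormone gene called with the block. Its levels were 286 and 141 on the 2 untreated arrays and 1427 and 818 after 24 h, having been 2939 and 1454 at 8 h. Both treated arrays lay above both controls, and each exceeded the control of its own number by more than 4-fold, at 2.32 and 2.54 log2 units. The change was 2.43 ± 0.55 (SE), 5.38-fold, and it missed the threshold by limma (adjusted p = 0.542) but under the replicate block it was called (adjusted p = 0.014). Replicate 2 was the lower array at every time, which the block takes into account. A second Inha probe set went from 363 and 167 to 746 and 405, with a log2 change of 1.16 that neither fit called. The inhibin, activin and Amh list had 4 other tested genes, none of them called. The follistatin-like Fstl1 had 1.00, the activin subunit Inhba 0.22, Amh -0.66 and its receptor Amhr2 -0.70 log2 units.

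Promoter windows that hold a cAMP response element or half-site are shown for 3 genes with different courses: Inha, which was still above 0 h, Crem, which had come back down, and Fam229a, which stood out at 24 h. These are not all the genes that hold one: the Slc7a1 window has a half-site at -82 and is not shown. The windows of Apoe (3) and Me1 (1), whose highest values were also at 24 h, hold neither and are not shown. Star, Bmyc and Wfdc1 had no window in the sequences used, so they could not be read. Each holds the 250 bases before a start site on its own strand, from RefSeq, rat build GRCr8, written 5' to 3', with capitals marking a full element (TGACGTCA) or, without one, a half-site (TGACG, or CGTCA on the other strand). The Inha window lies at chr9:84442859-84443108 on the plus strand with its half-site starting at -117 from the start site. The Fam229a window lies at chr5:147113804-147114053, plus strand, with a half-site at -123. Crem has 3 windows, all on the plus strand, of which chr17:58984547-58984796 holds a full element at -56 and chr17:58985240-58985489 another at -35, while the third has half-sites only.
Inha: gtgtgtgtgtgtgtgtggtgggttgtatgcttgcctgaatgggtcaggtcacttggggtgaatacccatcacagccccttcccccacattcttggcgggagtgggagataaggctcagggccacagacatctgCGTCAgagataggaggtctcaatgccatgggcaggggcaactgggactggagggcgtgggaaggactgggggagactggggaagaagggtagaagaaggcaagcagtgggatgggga
Fam229a: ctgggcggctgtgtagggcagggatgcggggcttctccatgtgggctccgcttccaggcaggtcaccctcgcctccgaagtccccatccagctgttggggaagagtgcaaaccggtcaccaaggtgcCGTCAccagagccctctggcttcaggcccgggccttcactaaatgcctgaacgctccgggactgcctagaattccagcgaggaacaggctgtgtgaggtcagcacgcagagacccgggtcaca
Crem, first window: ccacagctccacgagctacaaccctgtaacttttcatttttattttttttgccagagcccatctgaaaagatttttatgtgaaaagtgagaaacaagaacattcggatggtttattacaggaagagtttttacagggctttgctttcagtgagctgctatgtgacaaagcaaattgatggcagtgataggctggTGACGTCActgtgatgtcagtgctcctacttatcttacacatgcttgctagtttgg
Crem, second window: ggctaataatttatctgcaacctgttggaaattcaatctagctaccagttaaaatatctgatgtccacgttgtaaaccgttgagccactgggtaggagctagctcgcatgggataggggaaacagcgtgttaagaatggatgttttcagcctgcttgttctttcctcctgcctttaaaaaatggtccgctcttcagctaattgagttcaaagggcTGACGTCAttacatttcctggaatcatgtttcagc

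Full elements were too few in the windows of the 2-fold genes for their shares to be compared. A full element, which also counts as holding the half-site, lay in 1.59% of all 33469 windows, in 2.87% of the 2443 windows of tested genes and in 2 of 43 windows of genes at least 2-fold higher at 24 h (4.65%). Half-sites lay in 18.2%, 29.1% and 27.9% of these. Windows of genes 2-fold lower numbered 23, with 0 full elements and 3 with a half-site (13%). The core bound by Nr5a factors (AAGGTCA, or TGACCTT on the other strand) was in 3.99% of all windows, 2.13% of those of tested genes, 2 of the 43 and 0 of the 23. A match describes letters in these windows and is not a measured binding site.

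Star and Fdx1 were above 0 h at 24 h and below their earlier peaks. Star carries cholesterol to the inner mitochondrial membrane, where steroid synthesis starts. On its first probe set it read 2.7 and 22.3 at 0 h, the first of these under the floor, 732 and 773 at 4 h and 131 and 145 at 24 h. The 24 h arrays lay above the controls and well below the peak, with a change of 2.99 ± 0.37 (SE; adjusted p = 0.0659 by limma, 0.014 with the block, and 0.0152 after quantile normalization). The other Star probe set went from 34.1 and 63.3 to 132 and 183, a change of 1.74 ± 0.49 with adjusted p = 0.0596 under the block. Fdx1, the ferredoxin that feeds electrons to mitochondrial P450 enzymes, stood at 245 and 247 before FSH and at 794 and 452 after 24 h, having reached 2410.0 and 2499 at 8 h. Its arrays did not overlap, at 1.29 ± 0.35 (adjusted p = 0.738), while a dimmer Fdx1 probe set had 0.03. Hsd11b1, which interconverts active and inactive glucocorticoids, had 105 and 169 at 0 h, 178 and 196 at 8 h and 291 and 280.4 at 24 h, a change of 1.10 ± 0.39 that was larger than at any earlier time.

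Over the list of cholesterol delivery and steroidogenesis, 4 of 9 tested genes were higher without overlap (44.4%, against 16.3% of all tested genes) and 1 lower, and the median change was 0.65, against 0.03 for all tested genes. The lower one was Nr5a1, the nuclear receptor that activates steroidogenic genes, at 144 and 31.9 and then 29.2 and 31.8, where the drop lay within replicate 1 alone (-2.30 against -0.01). The list was drawn up with earlier results of these arrays known, so its count is a description. Markers of Leydig cells, the steroid-making cells outside the tubules, summed to 255 and 401 at 0 h and to 412 and 408 at 24 h over the 7 on the array. More cells of a type and more RNA per cell cannot be told apart in bulk samples. Hsd11b1 is also 1 of these 7 Leydig markers and 1 of the 2 that were tested. It was higher without overlap (1.10), and the other tested marker had -0.14 with overlap. Of the 7, 2 and 1 were at the floor at 0 h and 3 and 1 at 24 h. Cyp17a1, another Leydig marker, was at the floor on all 4 arrays (2.6 and 13.2, then 2.63 and 3.45). By contrast 15 tested genes of cholesterol synthesis and uptake had a median of -0.10, with 1 higher and 1 lower without overlap.

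The brakes on cAMP differed in how far they had come down by 24 h, and none of those below was called against 0 h. Pde4b, a cAMP phosphodiesterase, read 114 and 88.7 at 0 h, 484 and 382 at 2 h, 165 and 163 at 8 h and 322 and 265 at 24 h. It was thus higher again at 24 h than at 8 h, with a change from 0 h of 1.54 ± 0.33 (adjusted p = 0.453, and 0.0791 with the block). Pde4d, of the same family, went from 23.3 and 12.2, the second at the floor, to 67.5 and 31.9. Its change was 1.39 ± 0.55, after 2.80 at 2 h. Crem was different. The probe set with the widest range had 24.8 and 10.2 at 0 h, 546 and 518 at 4 h, 395 and 383 at 8 h and 35.7 and 25.6 at 24 h. Arrays at 24 h were 0.73 ± 0.36 log2 units above the controls, narrowly without overlap (25.6 against 24.8). The other tested Crem probe sets had 0.41 and -0.24 against 0 h, so their signs differed. On the first probe set the 24 h arrays were far under the earlier times, at -3.50 ± 0.30 against the mean of 2, 4 and 8 h (adjusted p = 0.00171 by limma). All 3 tested Crem probe sets fell in that test, the others by 2.58 and 3.28.

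The cAMP list, which holds Pde4b and Pde4d, showed no shared direction. Of 19 tested, 4 were higher and 2 lower without overlap (21.1% and 10.5%, against 16.3% and 13.9% of all tested genes), with a median of 0.17. Fshr itself read 195 and 88.2 and then 109 and 62.5, a change of -0.66 ± 0.50 with overlapping arrays.

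Among transcription factors, Bmyc was the one called with the block. It is a Myc family member found in rodents, and its most changed probe set went from 7.57 and 21.7, the first under the floor, to 146 and 113 at 2 h and 106 and 98.7 at 24 h. Both 24 h arrays were far above the controls and close to those of 8 h (101 and 89.2). The change was 2.58 ± 0.34 (adjusted p = 0.0659, 0.0234 with the block, and 0.0152 after quantile normalization), and the other 2 Bmyc probe sets gave 1.49 and 1.44. Klf4, a zinc finger factor, had 1 probe set in the 2-fold set (18.8 and 29.4, then 103 and 60.2) and another at 1.52 within replicate 1 and 0.10 within replicate 2. Of the 23 tested immediate early and CREB-target factors, 4 were higher and 5 lower without overlap (17.4% and 21.7%, against 16.3% and 13.9% of all tested genes). Their median of 0.91 at 2 h was -0.13 at 24 h. The brightest probe sets of Fos, Egr1, Myc, Jun and Junb lay between -0.65 and 0.12 at 24 h.

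**Figure D2:**
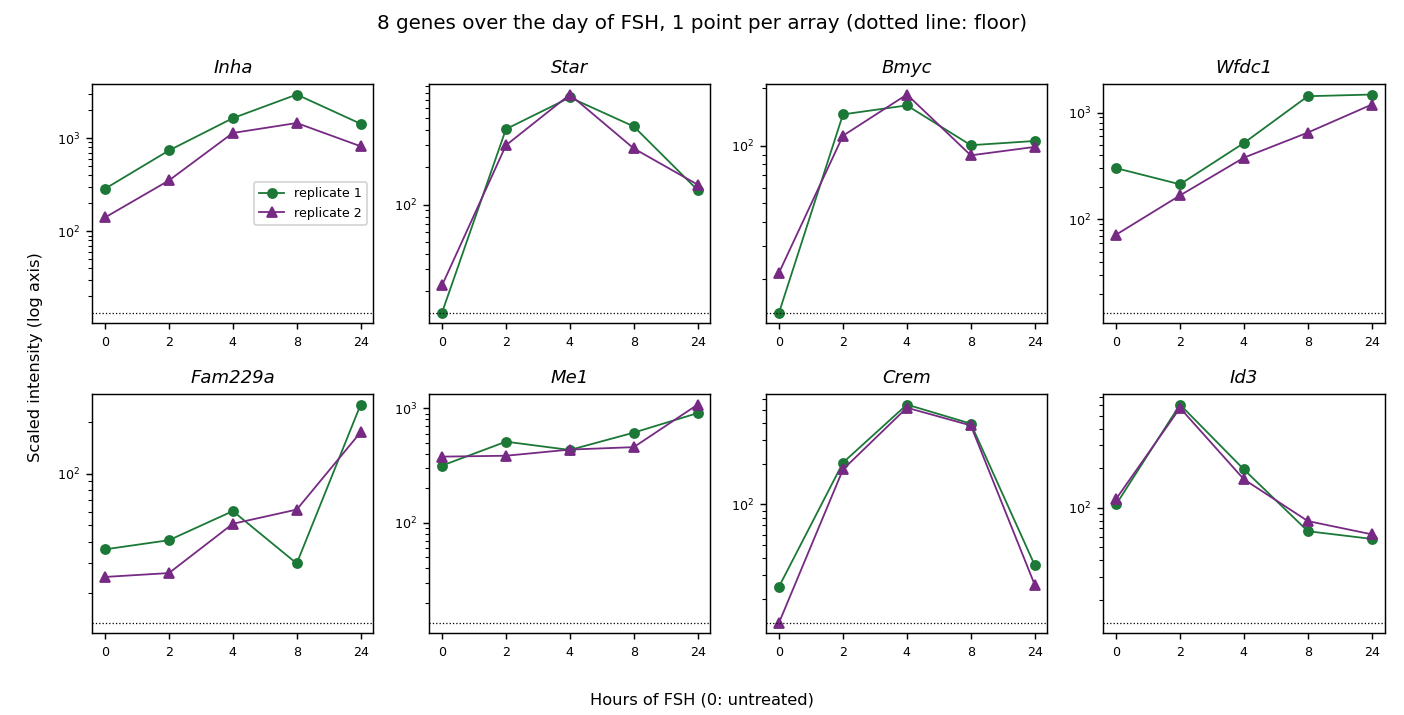
Scaled intensity on a log axis for 8 genes against hours of FSH, with 1 point per array, circles for replicate 1 and triangles for replicate 2, and the dotted line at the floor of 13.4. Inha, Star and Bmyc were still above 0 h at 24 h, Wfdc1 had its highest values on the 24 h arrays, Fam229a stood out at 24 h, Me1 had its highest values at 24 h, and Crem and Id3 were back near or under the 0 h arrays.

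Several single genes of transport and the cell surface also differed in the 2-fold set or stayed above 0 h. Slc7a1, the main transporter of cationic amino acids such as arginine, had 18.8 and 24.8 at 0 h, 66.4 and 48.3 at 8 h and 92 and 113 at 24 h, a change of 2.24 ± 0.38 (adjusted p = 0.252, and 0.0791 with the block). A second probe set had 68.1 and 56.3 and then 121 and 153, so the arrays of both probe sets were apart. Slc25a30, a mitochondrial carrier, had 291 and 259 at 0 h, 1621 and 1826 at 4 h and 893 and 624 at 24 h. Its change of 1.44 ± 0.31 was about level on both numbers (1.62 and 1.27). Kcnk5, a potassium channel, had 29.3 on the first control array, a value under the floor on the second, and then 103 and 58.4. Other channel and transporter genes of the 2-fold set went both ways. Lower ones included Kcne1 (-1.62), Slc8a2 (-1.58) and the Gabrd probe set (-1.52). Higher ones included 1 probe set of Atp2a2 (1.55) and 1 of Slc2a5 (1.41).

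Fat1, a giant cadherin, went from 39.6 and 16.9 to 155 and 128, a change of 2.45 ± 0.83 with adjusted p = 0.996. Its 2 h arrays disagreed (112 and 14.9), while those of 4 and 8 h did not overlap the controls. Cd24, a small glycoprotein of the cell surface, had 51.4 and 14.9, then 625 and 499 at 8 h and 142 and 107 at 24 h. The other tested probe sets of Cd24 had 0.90 and 0.36 at 24 h, so the size for this gene depends on the probe set. Ckb, the brain type of creatine kinase, had 1.95 on its dimmer and 1.25 on its brighter probe set, and on the brighter one most of that lay within replicate 1 (2.08 against 0.41).

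The genes called earlier give the fuller account of what lasted. By limma, 28 probe sets were higher than at 0 h after 2 h (0.631%), 38 after 4 h (0.856%) and 33 after 8 h (0.743%), which together made 61 probe sets of 44 genes. Their median change was 2.11 at 2 h, 2.60 at 4 h, 2.47 at 8 h and 0.60 at 24 h. A lower value later is partly built into choosing them for high earlier values. A value above 0 h is partly built in too, because they were called against the same 0 h arrays. At 24 h they ranged from -0.88 (Id3) to 2.99 (Star), with 10 below 0. Of the 61, 31 were higher than 0 h without overlap, 3 lower and 27 overlapping. Of all tested probe sets 15.8% were higher and 13.3% lower without overlap. The 2-fold set held 14 of the 61, all higher, against 1.28% of all tested probe sets. The 8 largest of the 61 with 1 symbol belonged to Star, Bmyc, Inha, Slc7a1, Cd24, Ckb, Lox and Klf4. Dgcr6, of the chromosomal region named after DiGeorge syndrome in humans, kept 1.40 of 4.04 at 8 h, and Plat, the tissue-type plasminogen activator, kept 1.11 of 4.28. Of the 26 tested genes of a list linked to FSH action, 8 were higher and 3 lower without overlap at 24 h. These are 30.8% and 11.5%, against 16.3% and 13.9% of all tested genes. In the 2-fold set were 5, all higher, against 35 higher of all 2733 tested genes by their brightest probe set. Their median ran from 1.29 at 2 h over 1.86 and 0.90 to 0.14. The list was drawn up with earlier results of these arrays known, so these values are a description.

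Whether 24 h stood apart from the treated hours before it was tested against the mean of 2, 4 and 8 h, where the 0 h arrays enter only the estimate of the spread. By limma 20 probe sets were lower (0.451%) and 1 higher (0.0225%). With the block 80 were lower (1.80%) and 13 higher (0.293%). The 20 became 6 and 17 without the first and second 2 h array, 3 and 14 without those of 4 h, 4 and 10 without those of 8 h, 4 and 0 without those of 24 h, and 27 and 26 without those of 0 h. Emd, the gene of emerin in the nuclear envelope, fell by 3.20 ± 0.27 log2 units (adjusted p = 0.00171), to 21.6 and 25.8 from 318 and 395 at 4 h, with both 0 h arrays at the floor. Nr4a3, an orphan nuclear receptor, fell by 2.99 ± 0.41, to 35.2 and 8.62, the second under the floor, as were both 0 h arrays. Ptp4a1, a phosphatase of the nucleus and cell membrane, fell by 2.61 ± 0.34, from 4204 and 2826 at 4 h to 334 and 370.2, against 187 and 289.6 at 0 h. None of these 3 was called against 0 h at 24 h.

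Dgat1, which makes triglycerides, fell by 1.91 ± 0.31, and its 246 and 263 at 24 h lay between the 0 h arrays (328 and 167), after 2609.9 and 2154 at 8 h. Mvk, mevalonate kinase of cholesterol synthesis, fell by 2.02 ± 0.30, and Plat by 2.54 ± 0.28. Ezr, which ties actin to the membrane, fell by 1.79 ± 0.28, to 172 and 176, still above the controls at 128 and 121. Acsl1, which activates fatty acids, and Ass1, of arginine synthesis, had peaked at 8 h and were back at 21.2 and 30.4 and at or under the floor (3.29 and 2.59), though neither was called in this test (adjusted p = 0.0648 and 0.0819).

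Wfdc1 had the largest log2 change among the 4439 tested probe sets. It encodes a secreted protein of the whey acidic protein family and read 302 and 71.9 at 0 h, 213 and 168 at 2 h, 519 and 378 at 4 h, 1422 and 649 at 8 h and 1474 and 1187 at 24 h. The control arrays were more than 4-fold apart, yet both 24 h arrays lay far above them, at 2.29 and 4.05 log2 units over their own controls. The change was 3.17 ± 0.64, 8.99-fold (adjusted p = 0.451 by limma, 0.0234 with the block). Against the mean of 2, 4 and 8 h it was 1.62 ± 0.52 higher, called with the block (adjusted p = 0.0456) but not without it (0.375).

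Some genes had most of their change between 8 and 24 h by the mean of both arrays. They were taken as the members of the 2-fold set whose change at each of 2, 4 and 8 h was under 0.5 of that at 24 h, which gave 6 probe sets higher and 6 lower. Fam229a had the largest change of these, with 36 and 24.8 at 0 h, 29.8 and 61.6 at 8 h and 253 and 175 at 24 h. All 8 earlier arrays lay at or under 61.6, and both replicate numbers gave the same 2.81. Its change from 0 h was 2.81 ± 0.46 (adjusted p = 0.236, and 0.0596 with the block). Against the mean of 2, 4 and 8 h it rose by 2.30 ± 0.38 (adjusted p = 0.0344), the 1 probe set called in that direction. No probe set was called so after quantile normalization or without either array of 2, 4 or 24 h or the first of 8 h.

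Me1, cytosolic malic enzyme, which supplies NADPH for fatty acid synthesis, had 1 of its 4 tested probe sets in this group. That one, the brightest, read 316 and 378 at 0 h, 433 and 436 at 4 h, 613 and 458 at 8 h and 909 and 1078 at 24 h, a change of 1.52 ± 0.33 that was level on both numbers (1.52 and 1.51). The other 3 tested probe sets gave 1.47, 1.41 and 1.21, and on each the 24 h arrays lay above the controls. On all 4 the 8 h arrays already lay above the controls. None passed at 24 h against 0 h (smallest adjusted p = 0.453), and 2 of them passed against the mean of 2, 4 and 8 h with the block (0.0357 and 0.0473). Apoe, the lipid carrier apolipoprotein E, read 399 and 842 at 0 h, 558 and 1899.8 at 2 h, 738 and 1432 at 8 h and 1849.9 and 2231 at 24 h on its brighter probe set. On replicate 2 most of that difference was thus there at 2 h, and on replicate 1 it was not. The other probe set read 136 and 471 at 0 h, 209.7 and 855 at 2 h and 830.1 and 1155 at 24 h. Changes of 1.81 ± 0.73 and 1.95 ± 0.90 were larger within replicate 1 (2.21 and 2.61) than within replicate 2 (1.41 and 1.30). Slc2a5, the fructose transporter, had 34.8 and 25.1 and then 90.9 and 67.6, while its other probe set had 0.64, also without overlap. S100a4, a calcium-binding protein, had 26 and 60.8 at 0 h, 32 and 109 at 2 h, 26.3 and 62.3 at 8 h and 65.8 and 126 at 24 h.

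With the block, 13 probe sets were higher at 24 h than over 2, 4 and 8 h. Dbp, a clock-driven factor, went from 267 and 51.7 at 0 h to the floor at 4 and 8 h and to 308 and 142 at 24 h, 3.10 above the earlier hours (adjusted p = 0.0197). Nr1d1, another output of the clock, was 1.62 above them (0.0287). For both genes the 24 h and 0 h arrays overlapped. The 6 tested clock genes had medians of -0.33, -0.70 and -0.80 at 2, 4 and 8 h and of -0.10 at 24 h. Without overlap 1 was higher and 2 lower (16.7% and 33.3%, against 16.3% and 13.9% of all tested genes). Tyro3, a receptor for the uptake of dying cells, stood at 320.3 and 164, 141 and 96.8 at 8 h and 585 and 398 at 24 h, 1.25 above the earlier hours (0.0369) and without overlap of 0 h. A dimmer Tyro3 probe set had -0.62 against 0 h, the opposite sign. Igf2r, which clears Igf2, Phgdh, of serine synthesis, Emb, Eif4ebp1 and Ralb made up the other named genes, with Fam229a, Wfdc1 and 2 probe sets of Me1.

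**Figure D3:**
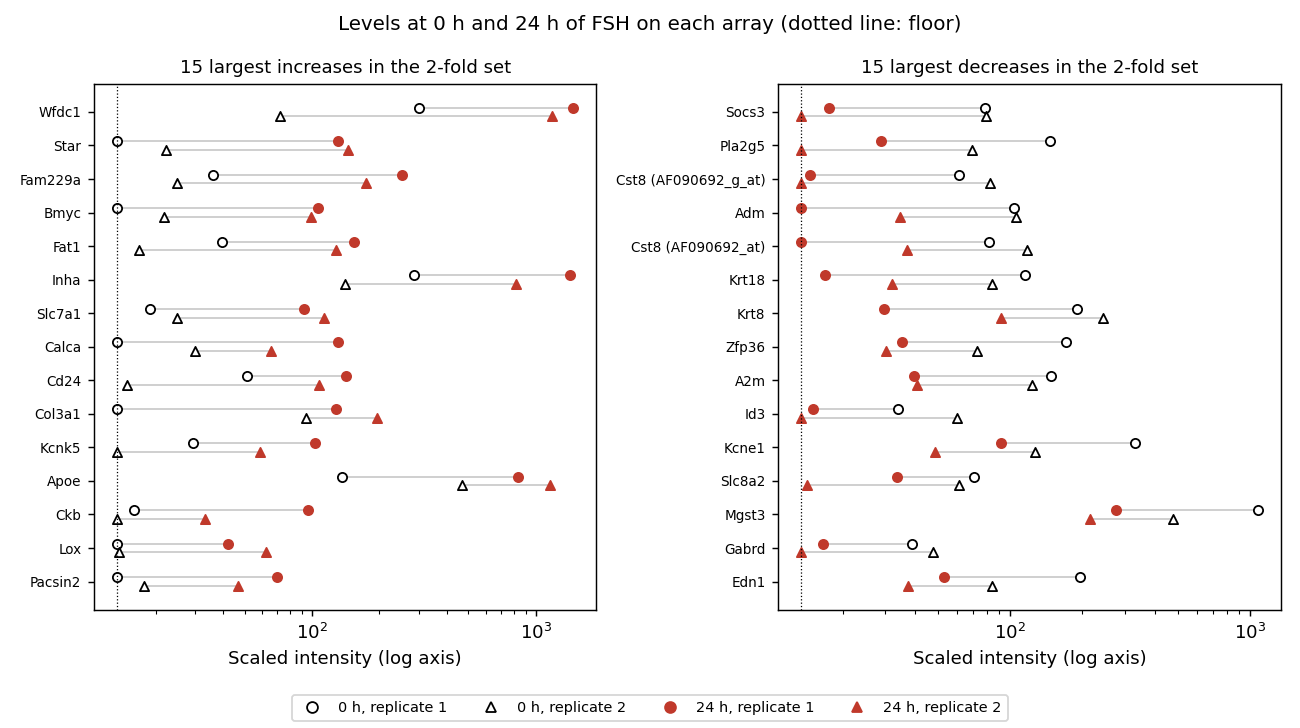
Scaled intensities on a log axis for the 15 largest increases (left) and 15 largest decreases (right) of the 2-fold set with 1 gene symbol. Open symbols are 0 h and filled red symbols 24 h, circles replicate 1 and triangles replicate 2, each pair joined by a line, with the dotted line at the floor. The 2 groups do not overlap for any of them, by the choice of the set, and Star, Bmyc, Calca, Col3a1 and Socs3 are among those with an array on the floor.

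Several genes of the extracellular matrix were higher on both 24 h arrays, and the collagens among them mostly within replicate 1. Col3a1, a fibrillar collagen, had 6.17 and 94.4 and then 128 and 196, a change of 2.15 ± 0.95 with 3.25 within replicate 1 and 1.05 within replicate 2. Col1a2, a chain of type I collagen, went from 32.8 and 183 to 347 and 296, where most of the change lay within replicate 1 (3.41 against 0.70). Fn1, fibronectin, had 29.6 and 68.7 and then 99.9 and 142, and Col5a2 22.2 and 51.6 and then 93.6 and 85.4. Lox and Loxl1 cross-link collagen and elastin. Lox had peaked at 8 h (187 and 133) and was at 42.2 and 62.5 on its most changed probe set, from 1.19 and 13.8, while Loxl1 had 108 and 113 and then 400.3 and 249. Spock2, a matrix proteoglycan, had 43.9 and 63.7 and then 142 and 188, level on both numbers (1.70 and 1.56).

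Of 18 tested matrix genes, 6 were higher without overlap (33.3%) and 1 lower, Mgp (5.56%), against 16.3% and 13.9% of all tested genes. By limma 0 were called, 2 were in the 2-fold set, and the median change was 0.37, against 0.03 for all tested genes. The same genes had medians of 0.14, 0.22 and 0.13 at 2, 4 and 8 h.

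Markers of peritubular myoid cells, the contractile cells around the tubule, moved with the matrix genes and share Col1a1, Col3a1, Fn1 and Dcn with that list. All 9 tested markers had positive changes, from 0.55 to 2.15. Of these, 4 were without overlap (44.4%, against 16.3% of all tested genes higher). The 2-fold set held 2 of them, against 35 higher of all 2733 tested genes by their brightest probe set. The median was 1.06, made of 1.75 within replicate 1 and 0.37 within replicate 2. Acta2, smooth muscle actin, read 122 and 282 at 0 h and 1361 and 322 at 24 h, and Tagln, transgelin, 50.7 and 37.1 and then 405 and 47.9. On the replicate 1 array at 24 h both were more than 2 times above every other array, whereas the replicate 2 array lay within or near the range of the earlier ones. Summed over the 12 markers on the array, intensities were 1074 and 1868 at 0 h and 4345 and 2481 at 24 h, with 3 markers at the floor on the first control and 0 on either 24 h array. Des, the desmin of these cells, went from 12.8 and 14.2 to 62.6 and 13.5. The part of these cells in the matrix and Apoe values was not tested.

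**Figure D4:**
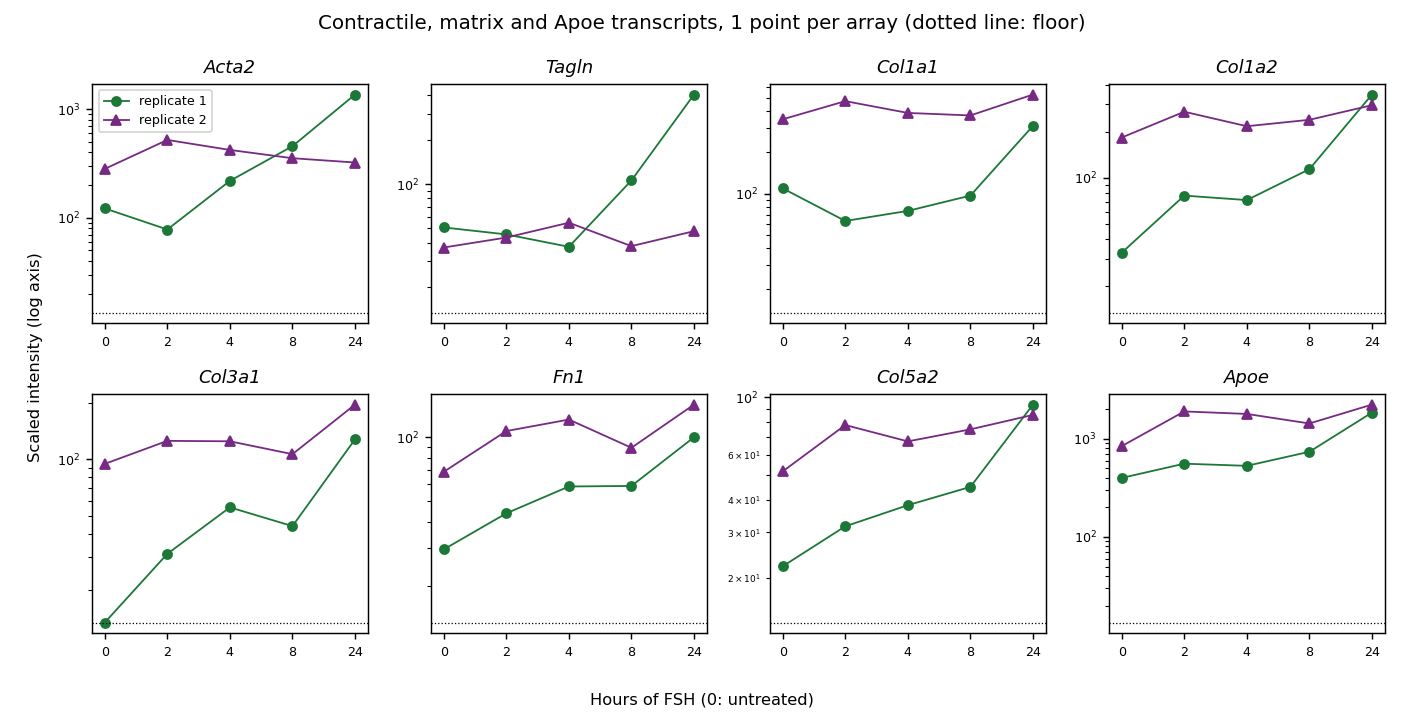
Scaled intensity on a log axis against hours of FSH for 8 contractile, matrix and lipid carrier transcripts, with 1 point per array, circles for replicate 1 and triangles for replicate 2, and the dotted line at the floor. Acta2 and Tagln are far above 0 h at 24 h on replicate 1 alone, while Col3a1, Fn1 and Apoe are highest at 24 h on both numbers and start lower on replicate 1.

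Several genes of inflammatory signalling were lower on both 24 h arrays. Socs3, which restrains cytokine receptors, had 78.8 and 79.2 at 0 h and 17.6 and 11.5 at 24 h, the second at the floor, a change of -2.36 ± 0.80 (adjusted p = 0.996). At 4 and 8 h its arrays disagreed, at 78.1 and 17.4 and at 14.8 and 67.5, so the time of the drop was not resolved. Pla2g5, a secreted phospholipase A2, had 146 and 69.1 and then 28.9 and 7.66, and it was already at 14.4 and 5.43 at 8 h. Stat3, the factor under cytokine receptors, had 88.3 and 64.2 and then 41.3 and 30.8, about level on both numbers (-1.10 and -1.06). Ccl2, a chemokine for monocytes, had 263 and 288 and then 87.5 and 124, and Il1r2, the decoy receptor of interleukin-1, 83.3 and 104 and then 37.7 and 36.1. Zfp36, which destabilises cytokine mRNAs, had -1.76 on 1 probe set and -0.55 on the brighter one.

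Over the inflammatory and NF-kB list, 8 of 17 tested genes were lower without overlap (47.1%, against 13.9% of all tested genes), 1 was higher and 3 were in the 2-fold set. The median was -0.63, with -0.84 within replicate 1 and -0.58 within replicate 2, against 0.03 over all tested genes, and 0 members were called. The medians at 2, 4 and 8 h were -0.26, -0.54 and -0.50. The 1 higher member was Nos2, inducible nitric oxide synthase, at 0.77 on its brightest probe set and -0.89 on another. Markers of macrophages summed to 1093 and 848 at 0 h and to 1051 and 1140 at 24 h over the 9 on the array, most of it Lgals3. Of these 9, 4 and 3 were at the floor at 0 h and 2 and 4 at 24 h. Cd74 and Itgam were at the floor on all 4 arrays, and the 2 tested markers overlapped between the groups.

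Vasoactive peptides divided. Adm, which encodes adrenomedullin, went from 104 and 106 to 4.39 and 34.8, and had already been at 37.7 and 9.21 at 2 h. Edn1, endothelin-1, had 195 and 84.2, then 66 and 35.6 at 2 h and 53 and 37.5 at 24 h. Calca, the gene of calcitonin and its related peptide, was higher, going from 13.4 and 30.1, the first at the floor, to 131 and 65.7, after 77.8 and 83.3 at 8 h. The changes were -2.28 ± 0.69, -1.52 ± 0.54 and 2.21 ± 0.59, none of them called. The median of the 8 tested genes was -0.70, with 3 lower and 1 higher without overlap (37.5% and 12.5%, against 13.9% and 16.3% of all tested genes).

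Keratins had lower values from the first time point on. Krt8 and Krt18 pair in the filaments of simple epithelia and are known from immature Sertoli cells. Krt8 read 189 and 244 at 0 h, 20.2 and 93.9 at 2 h and 29.7 and 91.9 at 24 h, and Krt18 115 and 83.7, 25 and 34.7 and 16.9 and 32.1. On both numbers the 24 h array lay far below its control, with changes of -2.04 ± 1.15 and -2.08 ± 0.66 that were not called (adjusted p = 0.996 for both). Krt19 had -0.96, also without overlap. The other 5 tested intermediate filament genes, which include vimentin and the lamins, lay between 0.07 and 0.49. Ocln, occludin of the tight junctions between Sertoli cells, was at 101 and 131, then at 560.0 and 333 at 4 h, and stood at 44.1 and 49.7 at 24 h, a change of -1.30 ± 0.43, with the other probe sets at -0.76 and -0.52.

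A pair of secreted protease inhibitors had their lowest values at 24 h. Cst8, a cystatin of the reproductive tract, had 61 and 82.4 at 0 h, 35.1 and 76.8 at 8 h and 14.6 and 5.84 at 24 h on 1 probe set, and 81.3 and 118 and then 11 and 37.2 on the other. Against the mean of 2, 4 and 8 h both were lower with the block only (adjusted p = 0.032 and 0.0333). A2m, alpha-2-macroglobulin, which traps proteases and is made by Sertoli cells, had 148 and 123 at 0 h, 143 and 96.3 at 8 h and 39.6 and 40.8 at 24 h. All 5 tested A2m probe sets were lower at 24 h without overlap, by -1.74 to -0.76 log2 units, and the brightest read 992 and 1333 and then 552 and 698. Against the mean of 2, 4 and 8 h the first A2m probe set had -1.37 ± 0.27 (adjusted p = 0.0795, and 0.0296 with the block). Id3, which blocks basic helix-loop-helix factors, read 609 and 574 at 2 h and ended at 58.1 and 62.9, under its 106 and 117 at 0 h, and its dimmer probe set had -1.67. Against the earlier hours both Id3 probe sets fell, by 1.71 and 2.53 (adjusted p = 0.0186 and 0.0176). Mgst3, a microsomal glutathione transferase, had 1075 and 477 and then 276 and 215, and Lim2 93.6 and 102 and then 32.9 and 39.

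Among 19 tested secreted Sertoli products, 7 were lower (36.8%) and 3 higher (15.8%) without overlap, with a median of -0.26. Of all tested genes 13.9% were lower and 16.3% higher. Clusterin (Clu), the most abundant of them, read 13782 and 7695 and then 9243 and 6779, and Shbg, which encodes androgen-binding protein, 817 and 629 and then 582 and 616. The insulin-like growth factor list had 4 of 10 lower (40%) and 1 higher (10%) without overlap and a median of -0.33. Igfbp3, a binding protein, had 42.7 and 49.3 and then 4.94 and 32, and Igf2 130.4 and 172 and then 103 and 82.7, while Igf2r, at 105 and 130.3 and then 232 and 183, was the higher one.

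**Figure D5:**
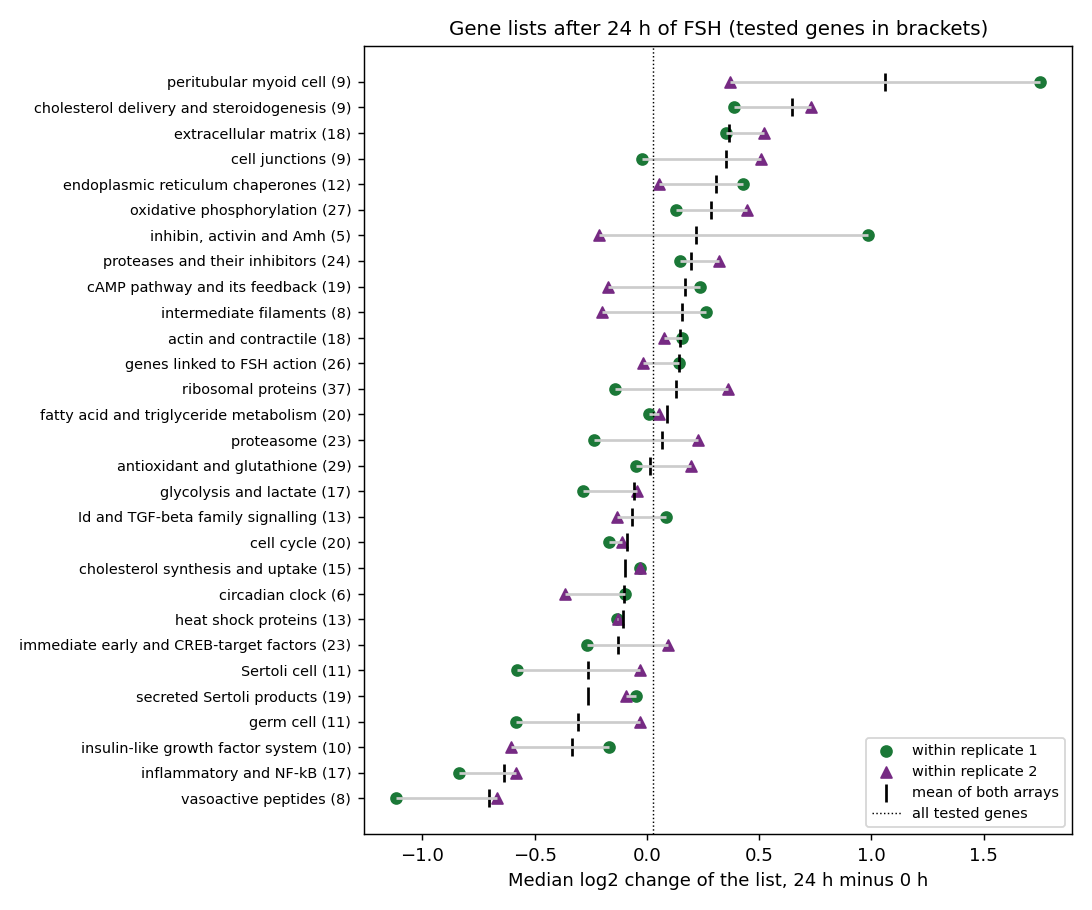
Median log2 change (24 h minus 0 h) of each gene list with at least 5 tested genes, on the x axis, with the number of tested genes in brackets. Green circles are medians within replicate 1, purple triangles within replicate 2, black bars those of the mean change, and the dotted line is the median of all tested genes at 0.03. The vasoactive and inflammatory lists lie lowest by the mean change and below the line on both numbers, steroidogenesis lies above the line on both, and the myoid list is spread from 0.37 to 1.75.

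None of the housekeeping lists had a called member. Their counts without overlap are set against 16.3% higher and 13.9% lower of all tested genes. The 37 tested ribosomal protein genes had a median of 0.13, with 8 higher (21.6%) and 0 lower without overlap. The 23 of the proteasome had 0.07, with 2 (8.7%) and 0. For oxidative phosphorylation the median of 27 genes was 0.29, with 6 higher (22.2%) and 1 lower (3.7%). For the chaperones of the endoplasmic reticulum it was 0.31 over 12, with 4 (33.3%) and 1 (8.33%). Glycolysis and lactate genes had -0.06 over 17, with 1 higher (5.88%) and 3 lower (17.6%), among them Aldoc, at -1.29 on its 2-fold probe set. The cell cycle list had -0.09 over 20, with 1 (5%) and 2 (10%).

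The identity of the cultures was read from marker genes. Of 11 tested Sertoli cell markers, 1 was higher (Inha, 9.09%) and 4 lower (36.4%) without overlap, against 16.3% and 13.9% of all tested genes. The summed intensity of Sertoli cell markers was 18017 and 10925 at 0 h and 13708 and 11101 at 24 h, most of it Clu. Germ cell markers were present as well, and more so on the replicate 2 arrays, at 1353 and 2985 at 0 h and 528 and 3153 at 24 h over the 19 on the array. Ldhc, the lactate dehydrogenase of spermatogenic cells, read 569.5 and 1007 and then 58.5 and 1317, lower on the first and higher on the second 24 h array than on its control. All 11 tested germ cell markers overlapped between the groups, with a median of -0.31. The part of these cells in the values above was not tested.

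Most of the 2-fold genes that more than 1 probe set measured had the same sign throughout. Of 29 genes in the 2-fold set with other tested probe sets, 27 had changes of 1 sign on all of them, 6 had another 2-fold probe set in the same direction, and 2, Atp2a2 and Gabrd, had a probe set of the opposite sign.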

How the data were processed

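The authors deposited 1 table of linear intensities, 1 value per probe set and array, for 10 Affymetrix rat arrays in 5 groups of 2. The scanner software and its settings are not given in the sources used here. The deposited intensities had trimmed means of 125.2 to 125.27 and were multiplied by 0.911 to 1.13 to share their 75th percentile, then floored and taken to log2.

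limma 3.58.1 (R 4.3.3) fitted 1 mean per group over all 10 arrays (lmFit, eBayes with trend). The replicate numbers come from the labels. They were taken to pair the samples because all 10 correlations of array 2 minus array 1 were positive, at 0.110 to 0.698. This does not show paired cultures. The script was tested on simulated data. Microarrays give no counts, and 2 arrays a group limit the precision.

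Of the probe sets, 7006 had 1 symbol, 308 several and 1426 none, from the platform's annotation, and symbols were updated through Entrez numbers for 6985 with RefSeq (GRCr8). Lists used the brightest tested probe set of a gene.

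Named genes are the 15 largest changes each way in the 2-fold set, those called with the block, the 8 largest and 6 smallest of the lasting ones, up to 12 late ones, the FSH list, up to 4 per other list by smallest p, and up to 8 each way against 2, 4 and 8 h. Acta2, Tagln, Col1a2, Des, Dcn, Mgp, Loxl1, Spock2, Slc25a30, Nr5a1, Amhr2, Ccl2, Il1r2, Nos2, Igf2, Dgat1, Mvk, Tyro3, Phgdh, Emb, Eif4ebp1, Ralb, Myc, Jun, Egr1, Atp2a2, Cyp17a1, Cd74 and Itgam were chosen after their values were seen. The comparison, members and lists were chosen with earlier results of these data known.

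Alternatives were other scalings, floors and filters, the block, an eBayes without trend, the 4 arrays alone and each array left out.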

Additional observations from a re-analysis of the deposited data

How the results depend on the processing

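With 2 arrays a group, limits are set by the arrays' number and by low signal. Calls against 0 h numbered 2 higher after quantile normalization (Star 3.20 and Bmyc 2.80, adjusted p = 0.0152 by limma) and 4 higher with the replicate block, and 4 lower with no filter on dim probe sets. Leaving out each array in turn gave 0 to 0 in both directions, and the 4 arrays alone gave 0 with and without the block. The block left the log2 changes of Wfdc1 (3.17), Star (2.99), Bmyc (2.58) and Inha (2.43) as they were and moved their adjusted p under 0.05. It changed no other call among the named genes against 0 h.

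The 2-fold lower set held 54 without the filter and 12 with a filter at 2 times the pooled median. Without single arrays of 2, 4 or 8 h, which moves only the filter, it held 29 to 31, and the higher set 53 to 58; leaving out an array of 0 or 24 h gives no value. Against control replicate 2 alone, an alternative chosen after seeing the data, 184 were higher and 112 lower, and held 49 of the 57 and 23 of the 30. Apoe's dimmer probe set, Fn1, S100a4, Col3a1, Dgcr6, Edn1, Mgst3 and Stat3 were among those left out. The causes were not tested.

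Against the mean of 2, 4 and 8 h, probe sets higher numbered 2 as deposited, 0 after quantile normalization, 13 with the block and 0 to 2 with single arrays left out. Those lower numbered 6 without the filter, 80 with the block and 0 to 27 with single arrays left out.

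Of 1753 values of 89 named probe sets under alternatives, 1743 kept their direction, 4 came out at 0 (Emd, Nr4a3 and Phaf1, with arrays on the floor) and 6 reversed. Over the arrays of 0 h left out, LOC102547700 ranged from -0.096 without control replicate 1 to 0.99, Clu from -0.80 to 0.041 without control replicate 1, and Nppc from -0.81 to 0.35 without control replicate 2. Nppc also had 0.12 without 24 h replicate 2. The Crem probe set that changed by 3.28 against the earlier hours ranged from -1.27 to 0.78 without 24 h replicate 1 and 2, and had 0.26 with a floor 2 times as high. The cause was not tested.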
